A study of Mus musculus with 106 samples.

Results

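The 9 genes described here carry amino acids and pyruvate towards glucose in the liver, and their chromatin was followed in livers given ligands of nuclear receptors. They are 9 of the 21887 protein-coding genes of the mm10 (GRCm38.p6) gene table. The members were chosen by name: Pcx, Pck1 and Fbp1 (steps of gluconeogenesis), Got1, Gpt2, Tat and Sds (enzymes that turn amino acids into its precursors) and Ppargc1a and Foxo1 (regulators of these genes). For each, every deposited peak whose centre lay in the gene body or within 10 kb of either end was counted, and the percent of the gene body inside regions of gained accessibility was measured. The study compared livers of Foxa2-KO mice (Foxa2loxP/loxP;Alfp.Cre) and WT mice, where Foxa2 is a forkhead factor able to bind closed chromatin and the Alfp promoter drives Cre in the liver lineage. Mice received GW4064 (an agonist of the bile acid receptor FXR), GW3965 or T09 (T0901317), both agonists of the oxysterol receptor LXR, or vehicle, 4 h before harvest where a time is labelled. The mice were 8 to 12 weeks old for ATAC-seq, Foxa2 and FXR ChIP-seq and 3 months old, on C57BL/6, for LXR and PPAR ChIP-seq. ATAC-seq marks open chromatin, and each of its 4 lists holds regions called in ligand over vehicle: GW4064 in Foxa2-KO livers (3 samples per arm), GW4064 in WT livers (3 per arm), and GW3965 and T09 in WT livers (2 per arm each). ChIP-seq, which marks DNA bound by a protein, gave 5 Foxa2 lists, all of WT livers (GW3965, T09 and 1 vehicle shared by both; GW4064 and its own vehicle), and lists of both genotypes for FXR (4), LXR (6) and PPAR (8). Each Foxa2 and each WT LXR group is labelled as 1 sample, each Foxa2-KO LXR group as 3, and each FXR and PPAR group as 2. For Foxa2 with GW3965, T09 and their shared vehicle, that sample is recorded as a pool of 3 replicates. No such number is recorded for Foxa2 with GW4064 and its vehicle.

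Every group or comparison came as 1 list with no value per animal, so no difference below could be tested over samples and no read depth is known. Of the ATAC-seq lists of GW4064, that of Foxa2-KO livers reaches a q of 0.05 and that of WT livers holds no q. Whether both were cut at 1 threshold is not known, and what the order of the WT list stands for is not given. The lists differ in length, and a longer list reaches more genes, so each main count of members is given beside the percent of all genes with a peak by the same rule. In order, the Foxa2 lists held 21245 peaks with GW3965, 25318 with T09 and 4348 with vehicle, and 22666 with GW4064 against 7306 with its vehicle. Whole liver was used, and the defining genes of hepatocytes carried Foxa2 peaks in 8 of 8 cases with each ligand. Those of Kupffer cells did so in 0 of 8 with GW3965, 0 with T09 and 1 with GW4064, and those of sinusoidal endothelium in 6 of 8 with each ligand. In the same order of ligands the counts were 0, 3 and 2 of 8 for stellate cells and 3, 3 and 2 of 8 for cholangiocytes. For T and B cells they were 0, 1 and 0 of 7. Of all genes, 36.9%, 39.2% and 38.8% had a Foxa2 peak in that order. A change in the mix of cells and a change within hepatocytes cannot be told apart in such lists.

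In fasting, the liver makes glucose from lactate, glycerol and the carbon of amino acids. Pyruvate carboxylase (Pcx) forms oxaloacetate, phosphoenolpyruvate carboxykinase (Pck1) turns it into phosphoenolpyruvate, and fructose bisphosphatase (Fbp1) removes a phosphate near the end of the path. Aminotransferases and deaminases feed it: cytosolic aspartate aminotransferase (Got1), mitochondrial alanine aminotransferase (Gpt2), tyrosine aminotransferase (Tat) and serine dehydratase (Sds). Glucagon, through cAMP, and glucocorticoids switch many of these genes on, and insulin switches them off by driving Foxo1, another forkhead factor, out of the nucleus, while the coactivator encoded by Ppargc1a works with such factors. In the rat, forkhead sites near Pck1 and Tat belong to the classical glucocorticoid response regions of these genes.

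The RefSeq promoter windows (GRCm38.p6) of Pck1, Got1 and Ppargc1a are shown because the first 2 lay under Foxa2 peaks in more than 1 list and the last was the only window of the members with an exact forkhead match. Each line gives the 250 bases before the start site, 5′ to 3′ on the strand of the gene and position numbers run back from the start site. Capitals mark a cAMP response element in Pck1, a nuclear receptor word in Got1 and a forkhead word in Ppargc1a.
Pck1, chr2:173152823-173153072, plus strand: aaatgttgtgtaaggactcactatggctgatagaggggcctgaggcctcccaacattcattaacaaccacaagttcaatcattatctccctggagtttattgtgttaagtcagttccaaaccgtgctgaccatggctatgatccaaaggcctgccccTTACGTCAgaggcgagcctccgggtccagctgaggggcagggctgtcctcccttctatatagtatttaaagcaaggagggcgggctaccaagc
Got1, chr19:43524606-43524855, minus strand: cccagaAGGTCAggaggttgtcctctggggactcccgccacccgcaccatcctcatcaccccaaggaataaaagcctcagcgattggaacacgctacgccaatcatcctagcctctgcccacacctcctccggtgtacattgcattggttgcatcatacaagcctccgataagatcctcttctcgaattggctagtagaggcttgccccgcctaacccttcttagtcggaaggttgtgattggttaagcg
Ppargc1a, chr5:51567726-51567975, minus strand: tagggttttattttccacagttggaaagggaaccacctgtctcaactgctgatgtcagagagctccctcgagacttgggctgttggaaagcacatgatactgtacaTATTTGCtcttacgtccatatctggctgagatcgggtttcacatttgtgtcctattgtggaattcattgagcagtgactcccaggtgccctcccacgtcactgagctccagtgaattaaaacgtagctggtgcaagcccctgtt

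The words searched on both strands were TGACGTCA and TTACGTCA for the cAMP response element, AGGTCA for nuclear receptors, and for forkhead factors TATTTAC or TATTTGC and the same words with G in place of the first A. RefSeq windows were at hand for 8 of the 9 genes, with a second window for Pcx, which has 2 start sites. The nuclear receptor word is part of the FXR and LXR repeats IR1 and DR4, whose exact forms were found in 0 of 21263 promoters of this length of protein-coding genes. The Pck1 element TTACGTCA stood at -93 to -86, and 2.38% of the promoters held a word of that kind. The Got1 word AGGTCA stood at -244 to -239 (12.8% of promoters), and the Ppargc1a word TATTTGC at -144 to -138 (10.4%). No other word was found in the windows of these genes. The Pck1 element lay inside the Foxa2 peaks of GW3965, T09 and vehicle and outside that of GW4064, the Got1 word lay inside a T09 region of gained accessibility and outside the Foxa2 peaks, and the Ppargc1a word lay in no list. A match is a description of the letters and not a measured site.

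Foxa2 was listed at all 9 genes with each ligand. With GW3965, 9 of 9 members had a Foxa2 peak, with 47 peaks in all, where 36.9% of all genes had one. With T09, 9 members had one (40 peaks, 39.2% of all genes), against 6 with vehicle (10 peaks, 12.1%). With GW4064, 9 members had one (34 peaks, 38.8%), against 6 with its vehicle (11 peaks, 17.8%). The vehicle list lacked Fbp1, Gpt2 and Ppargc1a, and the vehicle list of the GW4064 experiment lacked Pcx, Pck1 and Fbp1. Fbp1 was the only member with a Foxa2 peak in no vehicle list, while Got1, Tat, Sds and Foxo1 had one in all 5 lists, as did 9.98% of all genes.

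**Figure D1:**
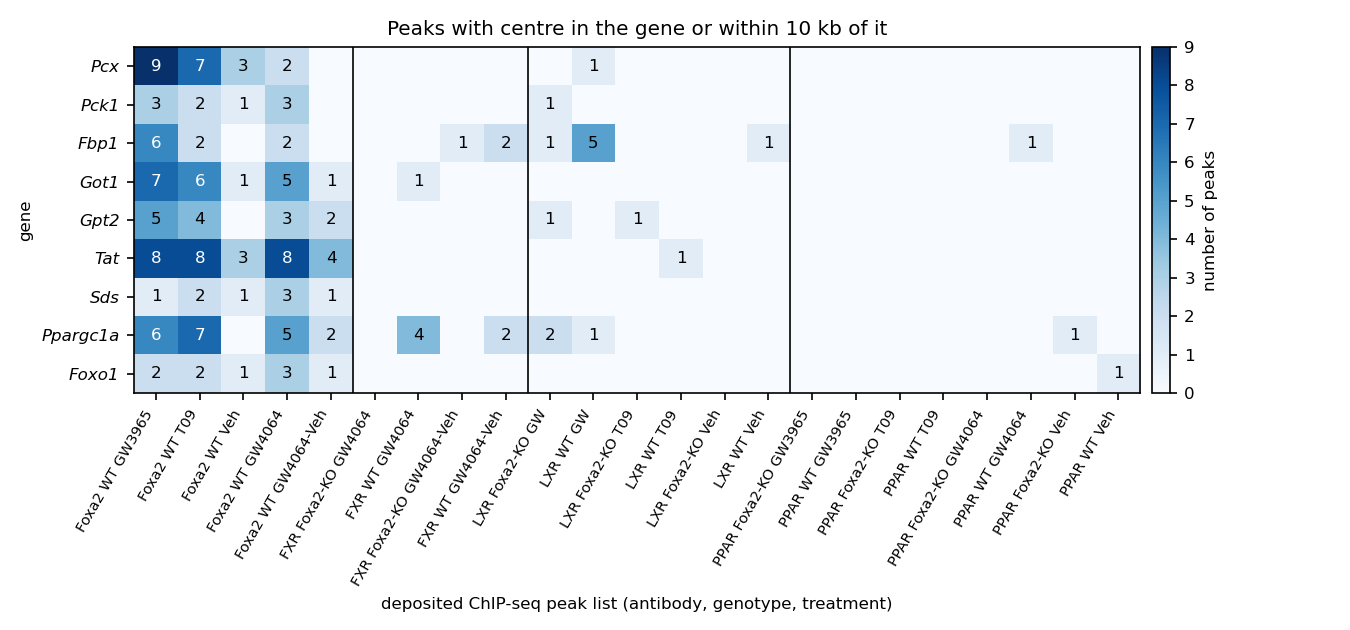
Number of peaks with centre in each gene or within 10 kb of it (rows) in the 23 ChIP-seq lists (columns: antibody, genotype, treatment), with empty cells at 0. The Foxa2 columns with ligand are filled for all 9 genes, with up to 9 peaks at Pcx with GW3965, and the FXR, LXR and PPAR columns are mostly empty.

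The ligand lists were longer, and the counts were therefore repeated on the first 4348 entries of each list, the length of the shortest. The Foxa2 lists hold no q, what their order stands for is not given in the sources used here, and entry numbers show no change between lists of unequal length. Then 8 members had a Foxa2 peak with GW3965 and 7 with T09, against 6 with vehicle, and 6 had one with GW4064, against 4 with its vehicle, where 12.0%, 11.8%, 12.1%, 12.2% and 11.9% of all genes had one. Ppargc1a had none among these entries in any list. At equal length the lists thus differed by at most 2 members between a ligand and its vehicle. Long genes collect more peaks: among genes of 50 kb or longer, to which Pcx, Ppargc1a and Foxo1 belong, 57.6% had a Foxa2 peak with GW3965, 69.1% with T09 and 66.4% with GW4064.

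**Figure D2:**
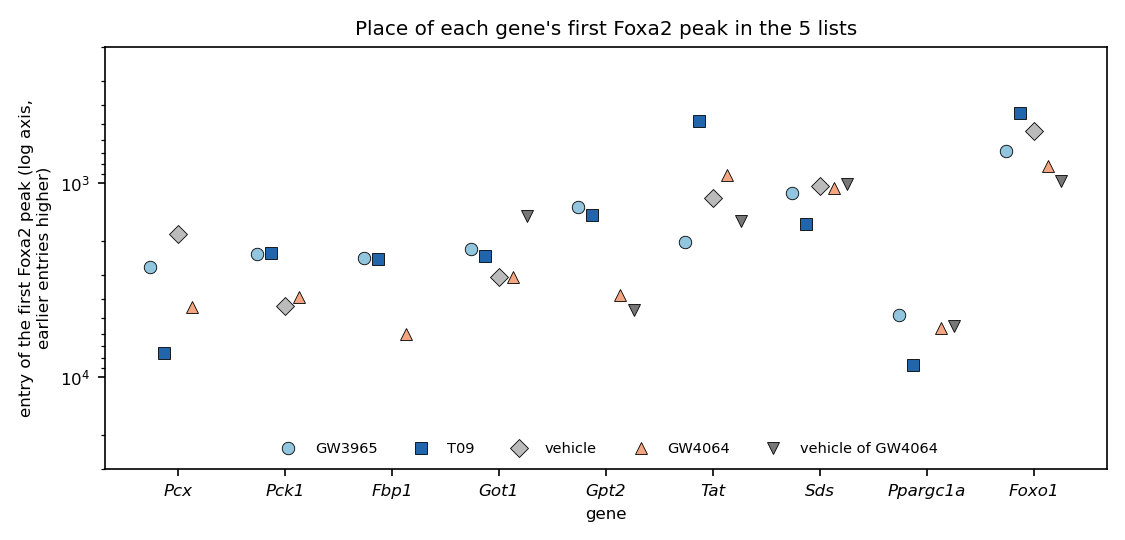
Place of the first Foxa2 peak of each gene in the list of each treatment, on a log axis with earlier entries higher. Foxo1 and Tat hold the earliest peaks (entries 439 and 483 with T09), and Fbp1 has no point for either vehicle.

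Peaks of different lists that shared at least 1 base were joined into 66 Foxa2 sites, 41 of them inside gene bodies. Of these, 6 were in all 5 lists: 3 at Tat and 1 each at Got1, Sds and Foxo1. Another 33 were in 1 list only. At the level of genes, 24.8% of all genes had a Foxa2 peak in all 3 ligand lists, as did the 9 members. These lists shared 23 sites, of which 11 were in neither vehicle list. Of the 15 sites in a vehicle list, 12 were also in all 3 ligand lists and 2, both in Ppargc1a, were in no ligand list. The ligand lists are longer than the vehicle lists, and no share over all Foxa2 sites stands beside these site counts. Whether they are particular to the members is therefore not known.

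Pcx, which makes oxaloacetate from pyruvate in mitochondria, lies at chr19:4510472-4621752 on the plus strand and spans 111281 bp. It had 9 Foxa2 peaks with GW3965 and 7 with T09, against 3 with vehicle, and 2 with GW4064, against 0 with its vehicle. They formed 12 sites, 9 of them in the gene body. The site at chr19:4557813-4558205 was in 4 lists: at entry 7528 with GW3965, 7565 with T09 and 1848 with vehicle, and at 5719 with GW4064. The site at chr19:4588467-4588802, 5685 bp before the inner start site of the gene at 4594319, was in the same 4 lists, at entries 4901, 9151, 3961 and 4398 in that order. Regions of gained accessibility covered 0.377% of the gene body with GW4064 in Foxa2-KO livers, against 1.64% in WT livers, and 0% with GW3965 and 0.303% with T09. Lrfn4 overlaps Pcx in the table, and accessibility where they overlap cannot be assigned to either gene. The widest region near it, of 3296 bp and 2811 bp beyond the far end, was gained with GW4064 in Foxa2-KO livers and covered 89.4% of the neighbour Rce1, against 0% in WT livers.

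Pck1, whose enzyme forms phosphoenolpyruvate from oxaloacetate and whose gene responds to cAMP, lies at chr2:173153073-173159274 on the plus strand. A Foxa2 site over its start, chr2:173152507-173153493, was in 4 of the 5 lists. With GW3965 the peak of 987 bp stood at entry 2340 and with T09 the peak of 580 bp at entry 2319, against 241 bp at entry 4346 of 4348 with vehicle. With GW4064 it had 178 bp at entry 3876, and its vehicle list held no peak at the gene. The GW3965 and T09 peaks covered all 250 bases of the promoter window shown above, against 106 bases for the vehicle peak, and the GW4064 peak covered 18. Peak widths also differ between the whole lists, with medians of 276 bp with GW3965, 293 bp with T09, 244 bp with vehicle and 124 bp with GW4064. A site 6180 bp before the start, chr2:173146742-173147045, was in the 3 ligand lists (entry 4606 with GW3965, 6616 with T09, 19951 with GW4064) and in neither vehicle list. The gene body held no gained region in any of the 4 comparisons. Gained regions lay only beyond its far end, over 32.1% of the downstream 10 kb with GW4064 in Foxa2-KO livers, against 0% in WT livers, and over 26.24% with T09 in WT livers.

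Fbp1, whose enzyme takes a phosphate off fructose bisphosphate, lies at chr13:62864753-62888298 on the minus strand. It had 6 Foxa2 peaks with GW3965 and 2 with T09, against 0 with vehicle, and 2 with GW4064, against 0 with its vehicle. The site shared by the 3 ligands, chr13:62888915-62889595, was centred 973 bp before the start site and stood at entry 2442 with GW3965, 2491 with T09 and 6046 with GW4064. Another GW3965 peak, at entry 17315, covered 208 bases of the promoter window. The gene body was 65.0% inside gained regions with T09, against 0% in the other 3 comparisons, and 0.439% of all genes were covered as much with T09. The cover came from 2 regions, of 14936 bp (entry 67, the authors' deposited fold 1.48) and 10525 bp (entry 222, fold 1.296). They filled the part of the gene away from its start and all of the 10 kb beyond it, reached 23.2% of Fbp2, the muscle form of the enzyme, and covered 0% of the 10 kb before the start. Of the 7 Foxa2 sites at the gene 1 lay on these regions, so gained accessibility and Foxa2 peaks stood mostly at opposite ends of Fbp1.

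Got1, whose cytosolic aminotransferase interconverts aspartate and oxaloacetate, lies at chr19:43499752-43524605 on the minus strand. It had 7 Foxa2 peaks with GW3965 and 6 with T09, against 1 with vehicle, and 5 with GW4064, against 1 with its vehicle. The site in all 5 lists, chr19:43516458-43516735, lay 8009 bp into the gene, at entry 3020 with GW3965 and 2926 with T09, against 3051 with vehicle, and at 3053 with GW4064, against 1484 with its vehicle. A site over the promoter was in the lists of GW3965 (entry 7503, 208 bases of the window) and GW4064 (entry 6536, 191 bases). With T09 the gene body was 88.3% inside gained regions, as much as in 0.256% of all genes, against 0.604% with GW4064 in Foxa2-KO livers, 0% with GW4064 in WT livers and 0% with GW3965. The T09 list held 14 regions in the gene or within 10 kb, 7 of them overlapping the body, with the authors' deposited folds between 1.504 and 6.169. The first, at entry 6 of 60868 and fold 3.819, spanned chr19:43492199-43502350, and the widest had 11280 bp at entry 18. They also covered 41.69% of the 10 kb before the start and 80% of the 10 kb beyond the gene, where the neighbour Cnnm1 was covered over 9.47% of its length. All 7 Foxa2 sites of Got1 lay on T09 regions, 6 of them in the Foxa2 list of T09 and 1, over the promoter, not in it.

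**Figure D3:**
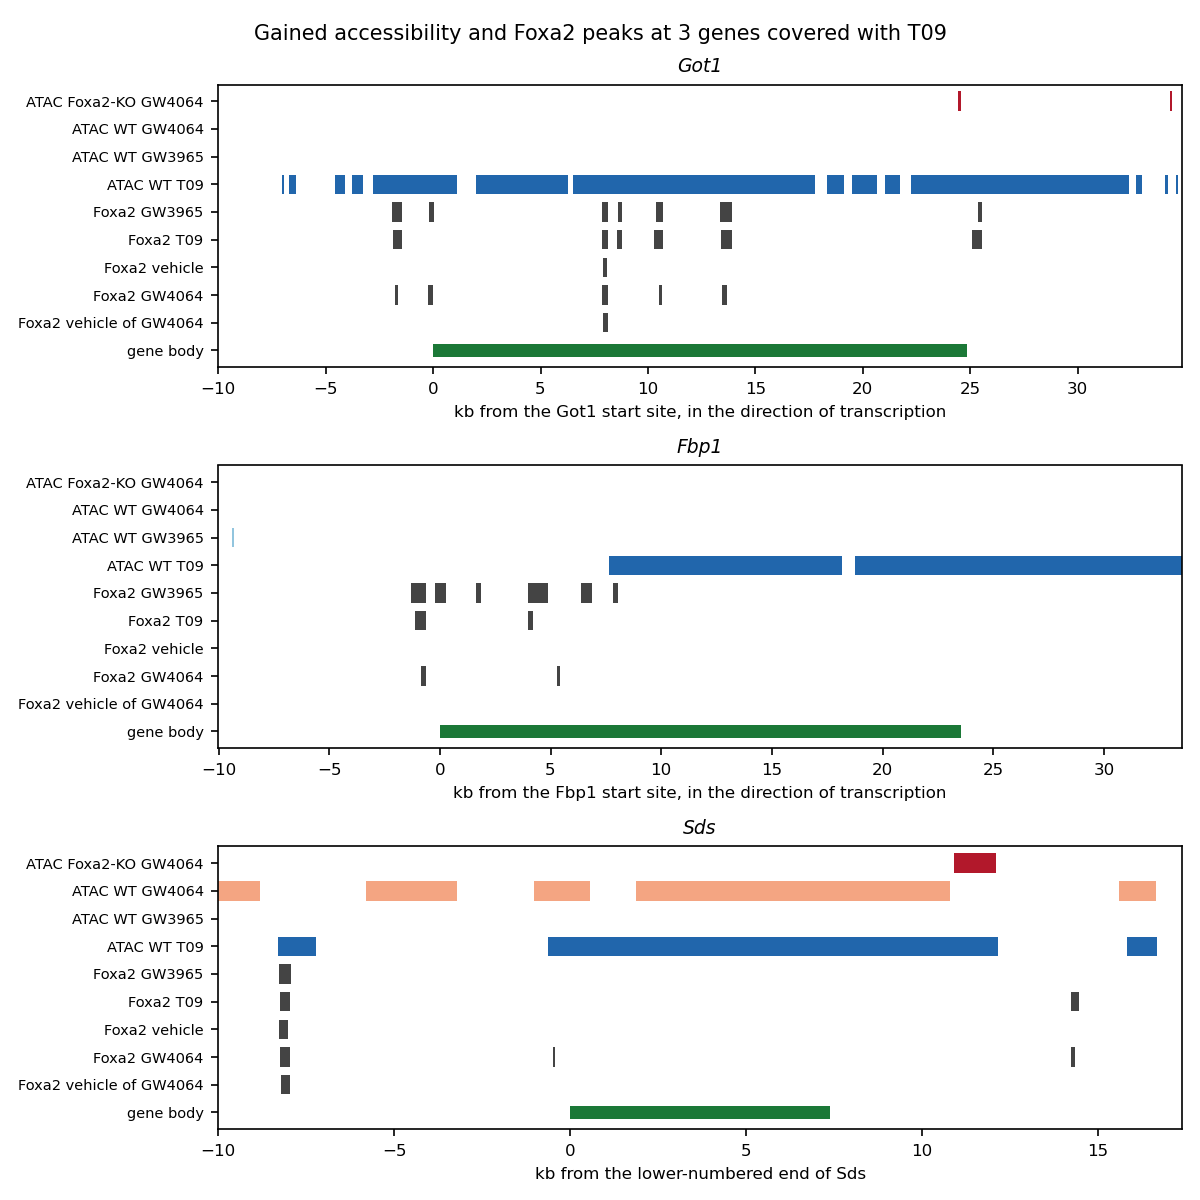
Regions of gained accessibility (coloured bars, ATAC-seq, ligand over vehicle) and Foxa2 ChIP-seq peaks (dark bars) along Got1, Fbp1 and Sds with 10 kb on either side, against distance in kb from the start site, or for Sds from the lower-numbered end of the gene. T09 regions run over most of each gene body (green), Sds is also covered with GW4064 in WT livers, and at Fbp1 the Foxa2 peaks lie near the start while the T09 regions lie beyond it.

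Gpt2, which makes pyruvate from alanine in mitochondria, lies at chr8:85492576-85528902 on the plus strand. It had 5 Foxa2 peaks with GW3965 and 4 with T09, against 0 with vehicle, and 3 with GW4064, against 2 with its vehicle. Its earliest site, chr8:85496011-85497039 and 3949 bp into the gene, stood at entry 1331 with GW3965, 1469 with T09 and 3786 with GW4064, and at 4908 with the vehicle of GW4064. A site 4001 bp before the start was in the 3 ligand lists only, the earliest at entry 2338 with GW3965. Gained regions covered 0% of the body with GW4064 in Foxa2-KO livers, against 6.16% in WT livers, and 4.51% with GW3965 and 21.7% with T09, as much as in 1.83% of all genes. None of the 5 Foxa2 sites lay on a gained region.

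Tat, which starts the breakdown of tyrosine, lies at chr8:109986078-109999804, with the listed start site at 109990436 on the plus strand. It was the member richest in shared Foxa2 sites: 8 peaks with GW3965 and 8 with T09, against 3 with vehicle, and 8 with GW4064, against 4 with its vehicle. The 3 sites in all 5 lists lay 11653, 10823 and 6153 bp before the start site, counted from their centres. The first, chr8:109978506-109979060, stood at entry 483 with T09 and 5139 with GW3965, against 3885 with vehicle, and at 1745 with GW4064, against 4357 with its vehicle. The nearest of the 3, chr8:109984144-109984422, stood at entry 961 with T09 and 2027 with GW3965, against 1220 with vehicle, and at 918 with GW4064, against 3225 with its vehicle. A site centred 2471 bp before the start, chr8:109987808-109988123, was in the 3 ligand lists (entry 19902 with GW3965, 8264 with T09 and 2488 with GW4064) and in neither vehicle list. None of the 9 sites of Tat was in 1 list only. No gained region lay in the gene body, and none of the 9 sites lay on a gained region in any comparison. With T09 2 regions, of 1274 and 1304 bp, covered 25.78% of the 10 kb beyond the gene.

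**Figure D4:**
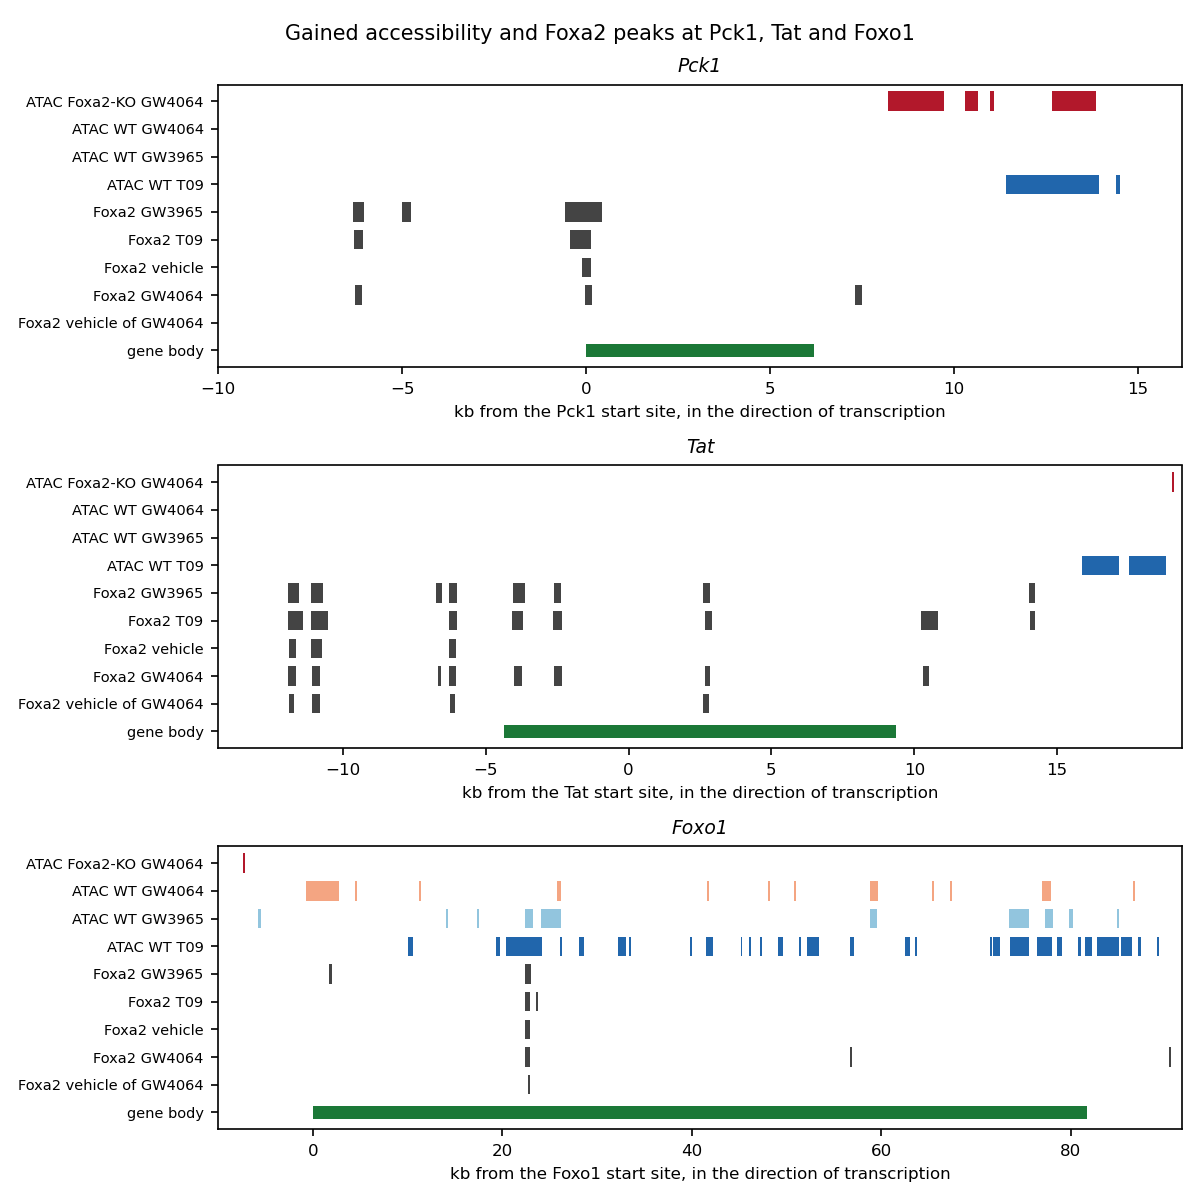
Regions of gained accessibility and Foxa2 peaks along Pck1, Tat and Foxo1, drawn as for Got1, with distance in kb from the start site. The bodies of Pck1 and Tat hold Foxa2 peaks and no gained region, and the Foxo1 site 22675 bp into the gene holds a Foxa2 peak in all 5 lists.

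Sds, which turns serine into pyruvate, lies at chr5:120476547-120483932. Its Foxa2 site in all 5 lists, chr5:120468284-120468620, lay inside the neighbouring gene Sdsl, which encodes a related dehydratase. It stood at entry 1137 with GW3965 and 1641 with T09, against 1047 with vehicle, and at 1070 with GW4064, against 1017 with its vehicle. The gene body was 0% inside gained regions with GW4064 in Foxa2-KO livers, against 82.1% in WT livers. It was covered over 0% with GW3965 and 100% with T09. As much cover was found at 0.288% of all genes with GW4064 in WT livers and at 0.16% with T09. The main region with GW4064 in WT livers had 8915 bp (entry 78, chr5:120478426-120487340) and that with T09 had 12767 bp (entry 54, chr5:120475926-120488692, the authors' deposited fold 1.497). In Foxa2-KO livers the only region near Sds was 1201 bp wide, at entry 15690, and lay outside the body. Sdsl was covered over 0% with GW4064 in Foxa2-KO livers, against 46.6% in WT livers, and over 13.3% with T09. The WT list of GW4064 holds no q, so its threshold may differ from that of the Foxa2-KO list. Plbd2 overlaps Sds in the table, and accessibility there cannot be assigned to either gene.

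Ppargc1a, the coactivator gene switched on by glucagon, spans 661605 bp at chr5:51454249-52115853, with the listed start site at 51567725 on the minus strand and most of the body lying before it. It had 6 Foxa2 peaks with GW3965 and 7 with T09, against 0 with vehicle, and 5 with GW4064, against 2 with its vehicle. Its earliest entry was 4796, and 11 of its 14 sites were in 1 list only. The 3 sites shared by the ligand lists lay 300479, 306996 and 367957 bp before the start site, in the long upstream part of the body. Gained regions covered 0.861% of the body with GW4064 in Foxa2-KO livers, against 0.0732% in WT livers, and 0.696% with GW3965 and 0.179% with T09. The 32 regions in Foxa2-KO livers, against 5 in WT livers, were each at most 1237 bp wide. The Foxa2-KO list is longer, with 82561 regions against 60528 in the WT list. Among genes of 50 kb or longer, 90.5% and 88.0% had a region in these lists. The difference in number was not tested.

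Foxo1 lies at chr3:52268337-52350109 on the plus strand. Its main Foxa2 site, chr3:52290685-52291339, stood at entry 686 with GW3965 and 439 with T09, against 539 with vehicle, and at 821 with GW4064, against 982 with its vehicle. The other 4 sites of the gene were each in 1 list. This site overlapped gained regions of GW3965 and of T09, and the T09 region was 3728 bp wide, at entry 747. The body was covered over 0% with GW4064 in Foxa2-KO livers, against 7.41% in WT livers, and over 8.96% with GW3965 and 19.7% with T09, the last from 26 regions that overlapped the body. With GW4064 in WT livers a region of 3483 bp, at entry 33566, held the whole promoter window.

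Cover of the body was highest with T09 at Fbp1, Got1, Gpt2, Sds and Foxo1, with GW4064 in WT livers at Pcx and with GW4064 in Foxa2-KO livers at Ppargc1a, and it was 0% throughout at Pck1 and Tat. At 25% or more of the body, 0 members were covered with GW4064 in Foxa2-KO livers (1.66% of all genes), against 1 in WT livers (1.94%). With GW3965 0 were covered (2.26%) and with T09 3 were (1.54%). The median over the members was 19.7% with T09, against 0% over all genes, and with the other comparisons it was 0%, 0.0732% and 0% for GW4064 in Foxa2-KO livers, GW4064 in WT livers and GW3965. Regions centred at a gene or up to 10 kb away were common everywhere: 8 members had one with GW4064 in Foxa2-KO livers (68.0% of all genes), 5 in WT livers (62.1%), 4 with GW3965 (60.8%) and 9 with T09 (61.4%). GW3965 and T09 both activate LXR and were compared with their own vehicles, 2 samples each, and their lists cover 20.2 and 14.7 Mb. The lists of GW4064 cover 19.4 Mb in Foxa2-KO livers and 20.8 Mb in WT livers, and the WT list holds no q by which to set both to 1 threshold. Neither the difference between agonists nor that between genotypes at these genes could be tested.

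**Figure D5:**
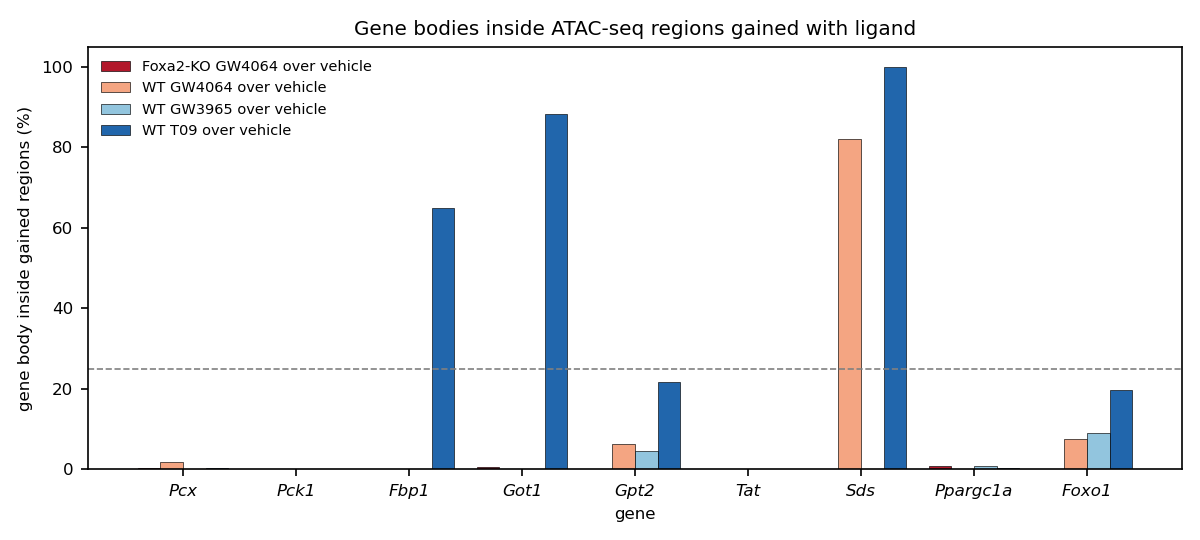
Percent of each gene body inside regions gained with ligand over vehicle in the 4 ATAC-seq comparisons, with the dashed line at 25%. With T09 Sds, Got1 and Fbp1 stand at 100%, 88.3% and 65.0%, Sds is at 82.1% with GW4064 in WT livers, and Pck1 and Tat are at 0% in each comparison.

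At these genes Foxa2 peaks and T09 regions met mainly at Got1 and Foxo1 and in the 10 kb around Sds. No Foxa2 site lay in the body of Sds, and its site in all 5 lists met a T09 region of 1084 bp inside Sdsl. Of the Foxa2 peaks with T09, 9 of 40 at the members lay on T09 regions, against 985 of 25318 in the whole list (3.89%). With GW3965 as the Foxa2 treatment the counts were 10 of 47, against 6.05% of its list, and with GW4064 9 of 34, against 3.59%. They came from Got1, Sds and Foxo1, with 1 peak of Fbp1 in the GW3965 list, and in the vehicle lists 3 of 10 and 3 of 11 peaks lay there too (4.62% and 3.71% of those lists). Got1 alone gave 6 of the 9 peaks with T09, 7 of the 10 with GW3965 and 5 of the 9 with GW4064. Without it 3 of 34 (8.82%), 3 of 40 (7.5%) and 4 of 29 (13.8%) lay on T09 regions, in that order. The 4 with GW4064 include peaks of 17 bp at Sds (entry 14673) and 21 bp at Foxo1 (entry 21465), where the list median is 124 bp. On GW3965 regions the order was the other way: 3 of 47 Foxa2 peaks with GW3965 at the members, against 5313 of 21245 in the list. Peaks along 1 gene share its regions and are not independent, and none of these shares was tested.

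Each list of the nuclear receptors reached fewer of the 9 genes than the Foxa2 lists with ligand, and also fewer of all genes. FXR with GW4064 had a peak at 0 members in Foxa2-KO livers (6.8% of all genes), against 2 in WT livers (30.5%). With the vehicle of GW4064 FXR had a peak at 1 member in Foxa2-KO livers (7.84%), against 2 in WT livers (13.5%). The WT members with GW4064 were Got1, with 1 peak of 68 bp at entry 16091, and Ppargc1a, with 4 peaks, the earliest at entry 378. Ppargc1a is long, and 60.6% of genes of 50 kb or longer had an FXR peak in that list. Fbp1 had an FXR peak with vehicle in both genotypes, at entry 1614 in Foxa2-KO livers and entry 5023 in WT livers, at positions that did not overlap, and none with GW4064. The Foxa2-KO FXR lists reach a q of 0.015 and hold 7254 blank lines with GW4064 and 28147 with vehicle, while the WT FXR lists hold no q and no blank lines, so the lists of the genotypes cannot be brought to 1 threshold.

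LXR with the agonist labelled GW had a peak at 4 members in Foxa2-KO livers (16.3% of all genes), against 3 in WT livers (25.5%). With T09 it had a peak at 1 member in Foxa2-KO livers (7.85%), against 1 in WT livers (14.6%), and with vehicle at 0 in Foxa2-KO livers (0.489%), against 1 in WT livers (9.38%). The Foxa2-KO members with GW were Pck1, Fbp1, Gpt2 and Ppargc1a, and those in WT livers were Pcx, Fbp1 and Ppargc1a. Fbp1 carried 5 of the WT peaks, all at entry 9019 or later and 1 to 114 bp wide. The Gpt2 peak in Foxa2-KO livers with GW, of 113 bp, lay 112 bp after the start site. PPAR had a peak at 1 member in any of the 4 Foxa2-KO lists (14.1%), against 2 in any of the 4 WT lists (8.0%). These were Ppargc1a with vehicle in Foxa2-KO livers, a peak 1 bp wide, against Fbp1 with GW4064 and Foxo1 with vehicle in WT livers. Their q-values were 0.0278, 0.0682 and 0.0589 in that order. The PPAR lists reach a q of up to 0.07, against 0.05 for the LXR lists. The LXR lists of the 2 genotypes are named with different false discovery limits, though both reach this q. They rest on 3 samples per group in Foxa2-KO livers and 1 in WT livers.

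The peaks of the 3 receptors at the members, 28 in all, were narrow, with a median width of 45 bp, and 9 had 100 bp or more. The 142 Foxa2 peaks had a median of 260 bp, and 135 had 100 bp or more. These widths follow the whole lists and are not particular to the members. Median widths over whole lists were 124 to 293 bp for Foxa2. For the receptors they were 34 to 70 bp, apart from 304 bp for LXR in Foxa2-KO livers with vehicle and 302 bp for PPAR in WT livers with GW3965. Only 1 of the 28 receptor peaks overlapped a Foxa2 site, an FXR peak of WT livers with vehicle at Fbp1, and 11 lay in a gained region, 9 of them at Fbp1.

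Other genes of the pathway were counted in the same way. Of all genes, 36.9% had a Foxa2 peak with GW3965 and 39.2% with T09, against 12.1% with vehicle. With GW4064 38.8% had one, against 17.8% with its vehicle, so the longer ligand lists reached more genes in general. Cover of 25% or more was reached by 1.66% of all genes with GW4064 in Foxa2-KO livers, against 1.94% in WT livers. With GW3965 2.26% reached it and with T09 1.54%. These shares apply to each related list below. Of 22 genes for other gluconeogenic steps and shuttles, 17 had a Foxa2 peak with GW3965 and 17 with T09, against 9 with vehicle, and 15 with GW4064, against 12 with its vehicle. None reached 25% cover with T09. With GW4064 1 did in Foxa2-KO livers (Gapdh at 65.2%), against 1 in WT livers (Slc25a10, a mitochondrial dicarboxylate carrier, at 28.9%). With GW3965 Slc25a10 (25.3%) and Gpd1 (glycerol phosphate dehydrogenase, 27.6%) did. Slc25a13, the aspartate and glutamate carrier that works beside Got1, had a peak or region in 14 of the 27 lists and at most 9.21% cover, with T09.

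Of 24 genes of amino acid catabolism, 22 had a Foxa2 peak with GW3965 and 18 with T09, against 11 with vehicle, and 18 with GW4064, against 11 with its vehicle. With T09 5 of the 24 were covered at 25% or more, against 0 with GW4064 in Foxa2-KO livers, 2 with GW4064 in WT livers and 2 with GW3965. Hgd, of tyrosine breakdown, was at 72.1% with T09, and Aass, of lysine breakdown, at 60.3%. The other 3 were Hpd, Fah and Asl. Bckdhb and Uroc1, the other genes of that list with the most lists, stood at 3.80% and 0.680% with T09.

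Among 15 regulators of gluconeogenic genes, 12 had a Foxa2 peak with GW3965 and 11 with T09, against 6 with vehicle, and 13 with GW4064, against 6 with its vehicle. Only with GW3965 did any reach 25% cover, namely Crtc2, the cAMP coactivator, at 45.3% and Cebpa at 100%. Hnf4a, a hepatocyte nuclear receptor, was covered over 0.467% with GW4064 in Foxa2-KO livers, against 16.6% in WT livers, and over 3.50% with GW3965 and 20.6% with T09, and Nr3c1, the glucocorticoid receptor gene, over at most 5.56%. Of 12 genes of glucagon and insulin signalling, 9 had a Foxa2 peak with GW3965 and 9 with T09, against 5 with vehicle, and 10 with GW4064, against 4 with its vehicle. Gcgr, the glucagon receptor gene, was covered over 25.2% with GW4064 in WT livers, against 0% in Foxa2-KO livers, and was the only one of them at 25% or more.

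Of 12 genes of glycolysis and glycogen metabolism, 11 had a Foxa2 peak with GW3965 and 10 with T09, against 4 with vehicle, and 8 with GW4064, against 4 with its vehicle. With GW3965 3 reached 25% cover: Ppp1r3b, a glycogen targeting subunit, at 84.7%, Pygl, the liver glycogen phosphorylase, at 32.2%, and Slc2a2, the liver glucose transporter, at 26.3%. With T09 none did, and those 3 stood at 0%, 1.99% and 0%.

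Other genes with patterns like those of the members were looked up by 2 measures of likeness. By the mean absolute difference in percent covered over the 4 ATAC-seq comparisons, Got1 was nearest to Pheta1 (0.533 percentage points) and Mat1a, the liver enzyme that makes S-adenosylmethionine (0.943), which stood at 89.8% and 85.1% with T09 and 0% in the others. Fbp1 was nearest to Leng1 (0.322) and Prdx5 (0.403), and 34 genes came within 5 points of Got1 and 38 of Fbp1. Sds was nearest to Wfikkn1 (4.27) and Mrps34 (4.46), both on chromosome 17, and 4 genes came within 5 points of it. By the Jaccard index of the sets of ChIP-seq lists (1 where both genes were listed in the same ones), Sds had the same set of 5 lists as 479 genes, Alas1 and Akap1 among them, and Got1 the same 6 as 178 genes, Exph5 and Hal among them. Pcx (Arel1, Itm2b), Pck1 (Cables1, Jmy), Gpt2 (Slc9a3r1, Rap2a), Tat (Setd4, Spred2), Foxo1 (Acaa2, Zfp740) and Ppargc1a (Zfp385b, Arpp21) each had an index of 1 with the genes in brackets, and 21, 14, 3, 35, 6 and 2 genes in that order shared the set. Fbp1, listed in 9 of the 23 ChIP-seq lists, had no equal, and Smad1 and Tbcd came nearest, with an index of 0.8.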

How the data were processed

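Of the 106 samples of the series, 61 liver chromatin samples in 31 groups lie behind the 27 deposited peak lists, per the labels called by PeakSeq against input, or for ATAC-seq ligand against vehicle, on mm10. BWA is named in the submitters' processing notes, with no version. The authors deposited a fold, or ratio over control, a −log10 of the p-value and a q-value for some lists and positions alone for others, among them the 5 Foxa2 lists. None of these values was recomputed. The −log10 p values the authors deposited were not used here. Entry numbers are places in the deposited order, which is the order of q where the authors deposited a q-value. The 37 RNA-seq samples and the ATAC-seq samples of Foxa2-KO livers with LXR agonists were not analysed here. Positions were read as 0-based starts and are printed 1-based.

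Peak centres within 10 kb of a gene body, and the percent of each body inside merged ATAC-seq regions, were computed for 21887 protein-coding genes of the RefSeq table (GRCm38.p6), whose strand came from the promoter table. The counting steps were tested on simulated data. The members, the related lists, the marker lists and the 25% limit were chosen with earlier results of these data known. All members were named, and of each related list at most 4 genes, those in the most lists. Counts over a related list cover all its genes, named or not, and other genes of these pathways are not reported here. Genes with 25% cover or more outside that rule (Gapdh, Hpd, Fah, Asl, Agxt, Prodh, Crtc2, Cebpa, Gcgr, Pygl) were chosen after their values were seen. The label GW of the LXR samples was kept as given. The series text gives injection and the sample labels oral gavage as the route, and series text and labels differ in the number of Foxa2 and LXR replicates. The software was python 3.11.15, numpy 2.4.6, pandas 2.3.3 and matplotlib 3.10.9.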

Additional observations from a re-analysis of the deposited data

How the results depend on the processing

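No paired analysis was possible because each group was given as 1 list without values per sample, so no replicate could be left out and no test was run. Of 111 recomputed counts, 82 stayed within 1.5 times the reported count. Within the first 500 entries Foxa2 reached 2 members with T09 and 0 with GW3965, GW4064 or either vehicle, FXR 1 in WT livers with GW4064, LXR 1 in Foxa2-KO livers with GW against 0 in WT livers, and 0 with T09 in both genotypes, and PPAR 0 in both. With peaks of 100 bp or wider FXR in WT livers with GW4064 reached 1 member, LXR in WT livers with GW 1, and LXR with T09 and PPAR 0 in both genotypes. At q of 0.01 or less LXR with GW or T09 and PPAR reached 0 members in both genotypes. With 50 kb on either side FXR in WT livers with GW4064 reached 5 members, LXR with T09 reached 2 in both genotypes, and PPAR reached 4 in Foxa2-KO livers. At a limit of 10% of the body, T09 regions covered 5 members (3.93% of all genes). For the other counts of this paragraph no percent of all genes is given. That percent changes with the window, the limits and the list length, so these counts are not read as results about the members. The limit on q was not run for lists without q. Equal list lengths were tried after the data were seen. Depth is unknown, and a gene without a peak may lie under the threshold of a short list.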

Other observations

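Hpd, Hgd and Fah, which follow Tat in the breakdown of tyrosine, were picked from the genes of amino acid catabolism after their values were seen. With T09 gained regions covered 97.0% of Hpd, 72.1% of Hgd and 36.4% of Fah, while Tat itself stood at 0%. With GW3965 the values were 0% for Hpd, 19.1% for Hgd, 50.0% for Fah and 0% for Tat. With GW4064 Hgd was covered over 0.329% in Foxa2-KO livers, against 12.3% in WT livers. Asl, of the urea cycle, was at 43.2% with T09 and at 0% in the other comparisons. Agxt stood at 0% with GW4064 in Foxa2-KO livers, against 45.3% in WT livers, and Prodh at 38.5% with GW3965. These values were not tested.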
